A study of Homo sapiens with 6 samples.

Results

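The let-7 microRNAs silence a set of embryonic genes that many tumours switch on again, and 10 such described let-7 targets are examined here in human embryonic stem cells with wild-type or mutant Dicer. The members were taken by symbol from the deposited table of read counts: the RNA-binding proteins IGF2BP1, IGF2BP2 and IGF2BP3, the chromatin proteins HMGA1 and HMGA2, the surface receptor PRTG, the transcription factors ARID3A, ARID3B and NR6A1, and the phosphatase CDC25A. All 10 symbols had a row among the 16199 genes of the table. Each row was matched to a protein-coding gene of RefSeq on assembly GRCh38.p14.

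Dicer cuts a hairpin precursor into a short duplex, and either strand, named 5p or 3p after its arm of the hairpin, can be loaded into an Argonaute protein. The working strand of let-7 is the 5p strand, and cancer hotspot substitutions of Dicer are known to impair release of 5p strands. In pluripotent cells the proteins LIN28A and LIN28B bind let-7 precursors and keep mature let-7 low, and let-7 climbs as cells differentiate.

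All libraries came from H1, an established human embryonic stem cell line, grown for 10 days without doxycycline. The 3 genotypes were wild-type, hemizygous for Dicer S1344L (labelled pm/fs in the protocol) and homozygous for S1344L (pm/pm), with 2 libraries each. Each sample was 2 dishes of 15 cm, crosslinked with 2 doses of 150 mJ/cm2 at a wavelength of 254 nm. RNA bound to Ago2, the Argonaute that holds a microRNA on its target, was then recovered with an antibody (iCLIP). The labels do not say whether a genotype is 1 clone or whether its libraries are separate cultures. The p-values thus reflect the spread among these libraries alone, and that spread could be technical. Whether a gene's count follows its transcript level, Ago2 binding or the number of cells holding it cannot be told apart in this table.

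Libraries held 38.2 M to 52.9 M counts, of which the 10 members took 0.374% to 0.451%. All 10 markers of pluripotency on a list were measured, at a summed level of 8113 to 10026 CPM (counts scaled to a common library size with TMM factors). Of markers of other lineages, 3 of 12 mesendoderm, 8 of 12 neuroectoderm, 2 of 8 trophoblast and amnion, and 13 of 16 fibroblast and stromal genes had a row. Many genes differed between replicate 1 and replicate 2 libraries whatever the genotype, and the values within each number are therefore given beside the fits.

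The mature let-7 guides are shown because their shared seed, bases 2 to 8 from the 5′ end, is what defines a let-7 target. The RefSeq table holds 11 mature human microRNA names with this seed, from 14 loci. The 9 of the let-7 and miR-98 group are printed below 5′ to 3′ with the seed in capitals.
let-7a-5p: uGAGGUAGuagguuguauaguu
let-7b-5p: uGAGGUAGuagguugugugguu
let-7c-5p: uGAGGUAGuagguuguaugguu
let-7d-5p: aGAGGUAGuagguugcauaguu
let-7e-5p: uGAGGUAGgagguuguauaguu
let-7f-5p: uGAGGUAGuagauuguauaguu
let-7g-5p: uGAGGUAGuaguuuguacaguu
let-7i-5p: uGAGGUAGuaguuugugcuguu
miR-98-5p: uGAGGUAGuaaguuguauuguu
Outside the seed these guides differ from let-7a at 1 to 4 positions. let-7i differs at 4, as G12U, A17G, U18C and A19U, counted from the 5′ end with the base of let-7a first. The seed is the same in all 9, so a site that pairs with it can be read by any of them.

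The precursor of let-7a-1 is shown because it places the guide on the 5p arm of its hairpin. It lies at chr9:94175957-94176036 of GRCh38.p14, on the plus strand, and the 5p guide, bases 6 to 27 of 80, is in capitals.
let-7a-1 hairpin: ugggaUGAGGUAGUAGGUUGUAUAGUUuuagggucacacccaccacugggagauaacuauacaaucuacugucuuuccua
The 3p strand lies at bases 57 to 77 of the same hairpin and does not carry the seed.

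None of the 10 targets passed the test between any of the genotypes. PRTG, HMGA2 and IGF2BP3 were the 3 members whose homozygous libraries lay below every wild-type and every hemizygous library, as were 5.49% of all genes. PRTG and IGF2BP3 also stood above every wild-type library in both hemizygous libraries, as did 8.13% of all genes. For IGF2BP3 the margin was 0.0154 CPM with TMM factors. The other 7 members overlapped between genotypes in all 3 comparisons.

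**Figure D1:**
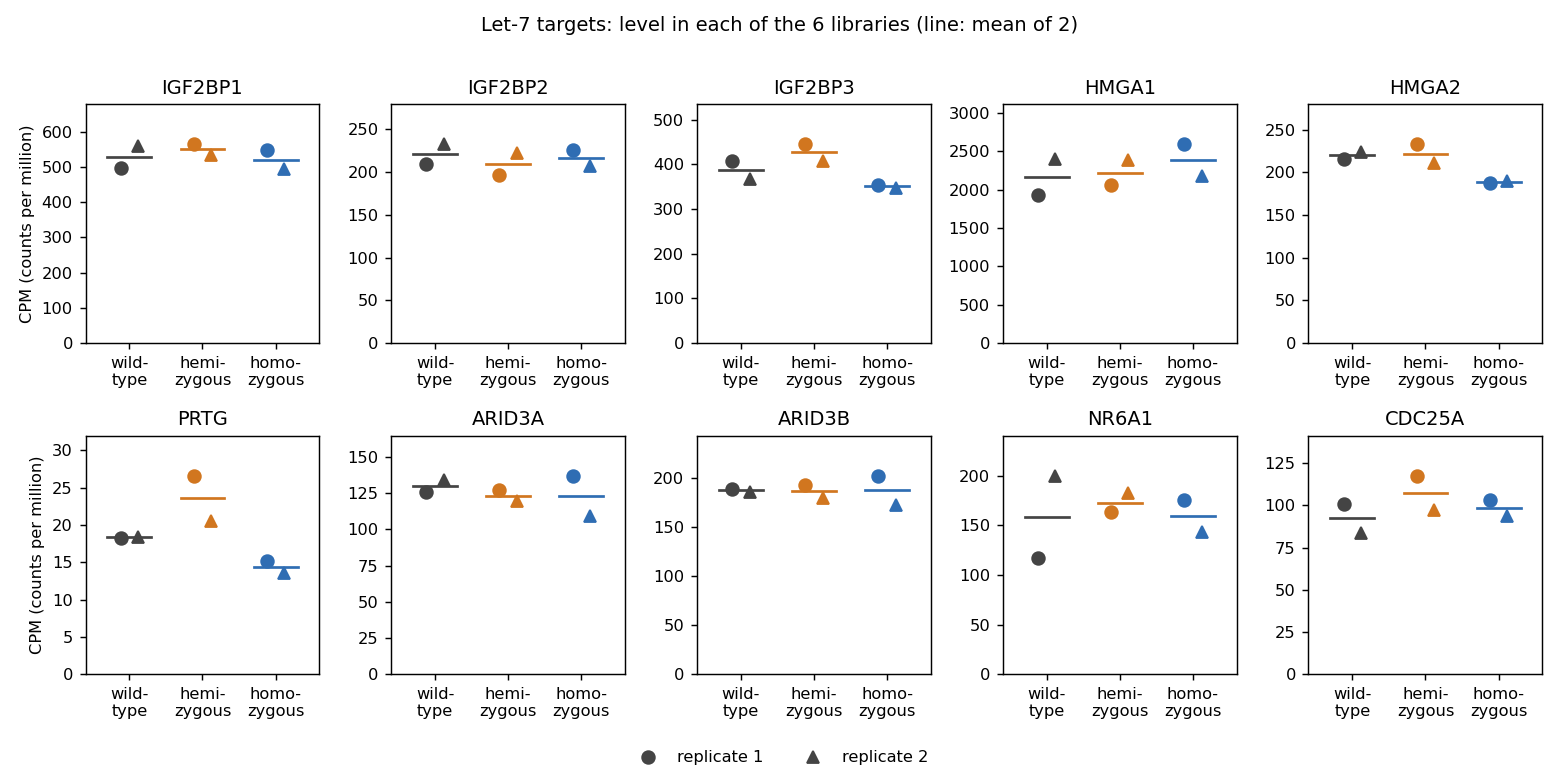
Level of each of the 10 let-7 targets in CPM (vertical axis from 0) in the 2 libraries of each genotype, circles for replicate 1 and triangles for replicate 2, with a line at the mean. PRTG runs from 13.6 to 26.6 CPM with the homozygous libraries lowest, while IGF2BP1 and ARID3B span 1.15-fold and 1.17-fold over all 6 libraries.

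PRTG, protogenin, is a surface receptor of the immunoglobulin superfamily, related to DCC and neogenin, that is made in the early embryo. It was the least counted member, with 553 to 1083 counts per library. Its level was 18.2 and 18.5 CPM in wild-type replicates 1 and 2, 26.6 and 20.6 CPM in hemizygous, and 15.1 and 13.6 CPM in homozygous libraries. The genotypes did not overlap: every hemizygous library lay above wild-type and every homozygous library below. In homozygous against hemizygous libraries PRTG had a log2 fold change of -0.71 (SE 0.17, 95% interval -1.13 to -0.30), or a 0.610-fold level. The unadjusted p by edgeR was 0.00504 and the adjusted p over all genes was 0.999, so the difference did not pass. Within replicate 1 the log2 difference was -0.81 and within replicate 2 it was -0.59. From wild-type, PRTG differed by 0.36 (SE 0.17) on the log2 scale in hemizygous libraries and by -0.35 (SE 0.17) in homozygous libraries, with an adjusted p of 1.00 in both by edgeR. Both comparisons use the same 2 wild-type libraries. The hemizygous value rests mostly on replicate 1, with a log2 difference of 0.54 there and 0.15 in replicate 2, and it was 0.17 without hemizygous replicate 1.

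HMGA2 encodes a small protein that binds AT-rich DNA through AT hooks and bends chromatin, and it is the textbook let-7 target because of the many let-7 sites in its transcript. It stood at 216 and 224 CPM in wild-type libraries, 233 and 211 CPM in hemizygous, and 188 and 189 CPM in homozygous libraries. The homozygous libraries were the lowest and differed from each other by less than those of either other genotype, while wild-type and hemizygous libraries overlapped. The log2 fold change of HMGA2 was -0.22 (SE 0.12, 95% interval -0.52 to 0.07) in homozygous against wild-type libraries, adjusted p = 1.00 by edgeR. Against hemizygous libraries it was -0.23 (SE 0.12), adjusted p = 0.999. Within replicate numbers 1 and 2 the log2 differences from wild-type were -0.20 and -0.24. In hemizygous against wild-type libraries the log2 fold change was 0.01 (SE 0.12), with opposite signs in the replicate numbers (0.11 and -0.09).

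HMGA1, the second AT-hook protein, was counted 78828 to 125790 times per library. Its level was 1932 and 2399 CPM in wild-type libraries, 2055 and 2387 CPM in hemizygous, and 2595 and 2182 CPM in homozygous libraries. The 3 genotypes overlapped. From wild-type, the fitted log2 difference of HMGA1 was 0.04 (SE 0.17) for hemizygous libraries and 0.14 (SE 0.17) for homozygous ones. Between the mutants the value was 0.10 (SE 0.17), and edgeR gave adjusted p of 1.00, 1.00 and 0.999. The homozygous difference from wild-type was 0.43 within replicate 1 and -0.14 within replicate 2, so the sign of HMGA1 turned with the replicate number. HMGA1 has processed pseudogenes, and the 3 with a row stood at 0.714 to 7.34 CPM. Reads of these copies cannot be told apart with certainty.

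The 3 IGF2BP proteins bind messenger RNAs and protect them from decay, and they are abundant in the embryo and in many tumours. IGF2BP3 was at 408 and 367 CPM in wild-type libraries, 445 and 408 CPM in hemizygous, and 354 and 346 CPM in homozygous libraries. The order was the same as for PRTG, hemizygous above wild-type above homozygous, but the lowest hemizygous library (407.7 CPM) was level with wild-type replicate 1. The gap between them was 0.0154 CPM with TMM factors, 1.77 CPM with RLE factors and 16.8 CPM with library totals alone, so its size depended on the scaling. In homozygous against hemizygous libraries the log2 fold change of IGF2BP3 was -0.28 (SE 0.13, 95% interval -0.59 to 0.02), adjusted p = 0.999 by edgeR, with -0.33 in replicate 1 and -0.24 in replicate 2. From wild-type, hemizygous libraries differed by 0.14 (SE 0.13) and homozygous libraries by -0.15 (SE 0.13), adjusted p = 1.00 in both. Leaving out each library in turn, the first ran from 0.075 to 0.22 and the second from -0.21 to -0.059, and the highest value of both came without wild-type replicate 1. On the genome IGF2BP3 overlaps MALSU1, a mitochondrial ribosome assembly factor. MALSU1 ran in the other order, with homozygous libraries at 29.8 ± 1.07 CPM (SD, n = 2), wild-type at 28.2 ± 0.207 and hemizygous at 26.1 ± 0.949.

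The paralogs of IGF2BP3 overlapped between genotypes. IGF2BP1 was at 497 and 559 CPM in wild-type libraries, 565 and 535 CPM in hemizygous, and 547 and 493 CPM in homozygous libraries. From wild-type its log2 level differed by 0.06 (SE 0.13, 95% interval -0.26 to 0.38) in hemizygous libraries and by -0.02 (SE 0.13, -0.34 to 0.30) in homozygous libraries. IGF2BP2, the paralog that is also made in adult tissues, was at 209 and 233 CPM in wild-type libraries, 197 and 222 CPM in hemizygous, and 226 and 208 CPM in homozygous libraries. The corresponding log2 fold changes of IGF2BP2 were -0.08 (SE 0.14) and -0.03 (SE 0.14). For both genes the homozygous difference had a positive sign in replicate 1 and a negative sign in replicate 2.

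ARID3A and ARID3B are transcription factors with an AT-rich interaction domain. ARID3A was at 126 and 134 CPM in wild-type libraries, 127 and 119 CPM in hemizygous, and 137 and 109.4 CPM in homozygous libraries. The homozygous libraries held both the highest and the lowest value, and each mutant genotype had a log2 fold change of -0.08 (SE 0.15) from wild-type. ARID3B was at 188 and 186 CPM in wild-type libraries, 193 and 180 CPM in hemizygous, and 202 and 172 CPM in homozygous libraries. Its means were 187 CPM in all 3 genotypes, with log2 fold changes against wild-type of -0.01 (SE 0.14, 95% interval -0.33 to 0.32) and 0.00 (SE 0.14, -0.32 to 0.32). The sign of so small a value has no meaning, and it turned with the scaling and the tool.

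NR6A1, or germ cell nuclear factor, is an orphan nuclear receptor that shuts off POU5F1 when pluripotent cells differentiate. Its level was 117 and 200.1 CPM in wild-type libraries, 163 and 182 CPM in hemizygous, and 175 and 143 CPM in homozygous libraries. The wild-type libraries held both the lowest and the highest value, so no genotype could be placed above another. The log2 fold changes of NR6A1 against wild-type were 0.12 (SE 0.26) and 0.00 (SE 0.26), and the homozygous difference was 0.58 within replicate 1 and -0.48 within replicate 2.

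CDC25A removes inhibitory phosphates from cyclin-dependent kinases and so lets cells pass from G1 into S phase. It was at 100.6 and 83.8 CPM in wild-type libraries, 118 and 97.4 CPM in hemizygous, and 103 and 93.8 CPM in homozygous libraries. The genotypes overlapped, yet replicate 1 was the higher library in each of them. In hemizygous against wild-type libraries the log2 fold change was 0.22 (SE 0.16, 95% interval -0.16 to 0.60), adjusted p = 1.00 by edgeR, with 0.22 within each replicate number. It was 0.36 without wild-type replicate 1, 0.11 without wild-type replicate 2, 0.087 without hemizygous replicate 1 and 0.35 without hemizygous replicate 2. In homozygous libraries it was 0.09 (SE 0.16).

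**Figure D2:**
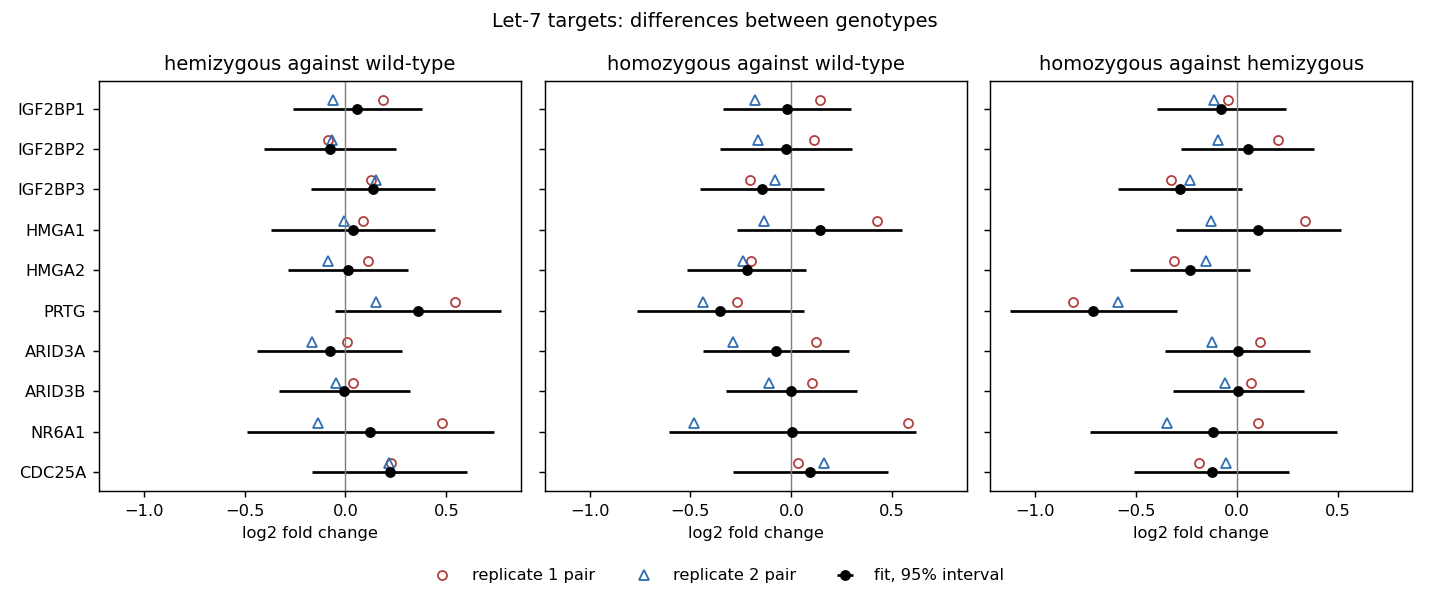
Log2 fold change of each let-7 target (horizontal axis) in the 3 comparisons, with black points and 95% intervals from edgeR's quasi-likelihood fit and open symbols for the difference within replicate 1 (circles) and replicate 2 (triangles). Of the 30 intervals, the interval of PRTG in homozygous against hemizygous libraries (-1.13 to -0.30) is the one that leaves out 0.

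The counts of members were read against all genes of the same comparison. edgeR called 0 of 10 members and 0% of all genes at an adjusted p under 0.05 in each comparison of genotypes. In hemizygous against wild-type libraries 0 members and 0.87% of all genes had an unadjusted p under 0.05, and in homozygous against wild-type 0 members and 2.69%. In homozygous against hemizygous libraries 1 member, PRTG, and 0.765% of all genes had one. This model held no term for replicate number, so gaps that follow the number counted as spread and can hide differences. With a block for replicate number the shares of all genes were 3.8%, 12% and 8.2% in the same order, with 2, 2 and 3 members. DESeq2 and limma-voom called 0 members in each comparison as well. Of all genes limma-voom called 0%, and DESeq2 called 0.0432%, 0.0617% and 0.0617% in the same order of comparisons. DESeq2 gave PRTG an adjusted p of 0.642 in homozygous against hemizygous libraries.

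Separation of libraries was common throughout the table. In hemizygous against wild-type, 2 members were higher without overlap, beside 8.13% of all genes, and 0 were lower, beside 9.21%. In homozygous against wild-type, 3 were lower, beside 13.6%, and 0 were higher, beside 14.2%. In homozygous against hemizygous, 3 were lower, beside 10.4%, and 0 were higher, beside 11% of all genes. The full order of hemizygous above wild-type above homozygous, with no overlap, was met by PRTG and IGF2BP3 and by 45 of all genes (0.278%). Of the members, 7 had a log2 fold change above 0 in hemizygous against wild-type (49.1% of all genes), 4 in homozygous against wild-type (49.3%) and 4 between the mutants (49.9%). Their median log2 fold changes were 0.05, -0.02 and -0.10. Within replicate 1 the members' medians were 0.12, 0.11 and 0.01, and within replicate 2 -0.06, -0.17 and -0.13. The median over all genes lay within 0.01 of 0 in the 3 comparisons. Leaving out 1 library moved each of the members' medians across 0: to -0.01 in hemizygous against wild-type when wild-type replicate 1 was dropped, and, when homozygous replicate 2 was dropped, to 0.06 in homozygous against wild-type and 0.01 between the mutants.

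**Figure D3:**
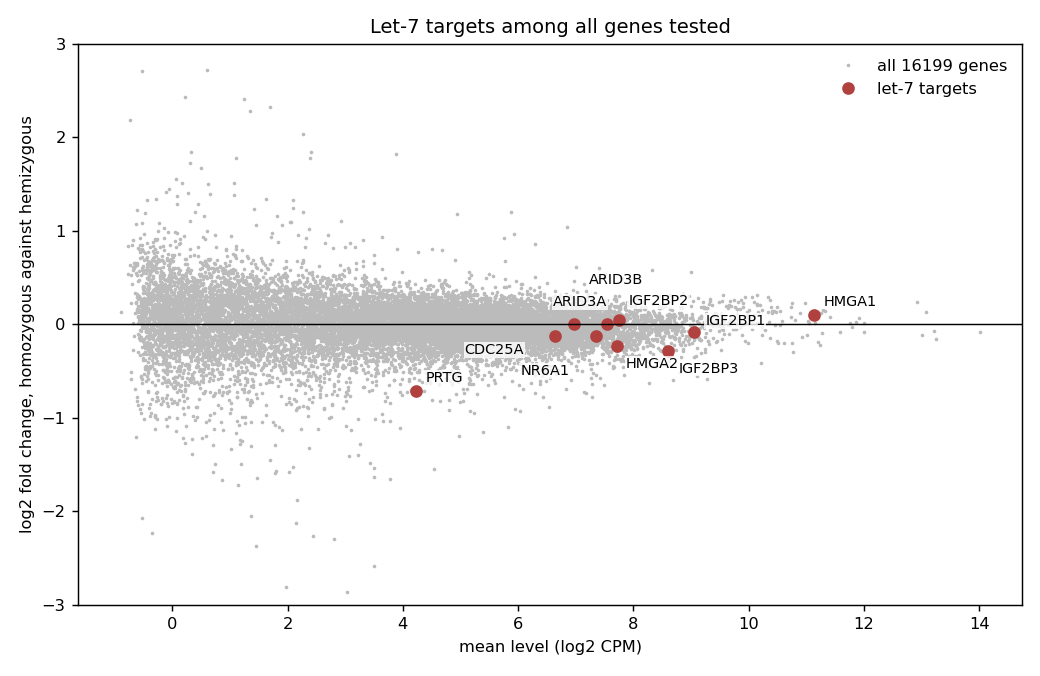
Log2 fold change in homozygous against hemizygous libraries (vertical axis) against mean level in log2 CPM (horizontal axis) for all 16199 genes (grey) and the 10 let-7 targets (red). PRTG (-0.71) is the lowest of the 10 and the other 9 lie between -0.28 and 0.10; 6 genes fall outside the plotted range of 3 on either side.

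Marker lists of other cell types were set beside these values, and edgeR called 0 genes of the stromal and neuroectoderm lists between genotypes. Of 13 measured fibroblast and stromal genes, 7 were lower in homozygous than in hemizygous libraries without overlap and 0 higher, where 10.4% of all genes were lower and 11% higher. Against wild-type 6 were lower without overlap and 1, PDGFRA, was higher (log2 fold change 0.57, SE 0.37), where 13.6% of all genes were lower and 14.2% higher. The summed level of the 13 was 1780 to 1841 CPM in homozygous, 1864 to 2383 in hemizygous and 1898 to 2347 in wild-type libraries. Most of the gap lay in replicate 1, with 1841, 2383 and 2347 CPM in that order, against 1780, 1864 and 1898 CPM in replicate 2. Between the mutants the median log2 difference of the 13 was -0.60 within replicate 1 and -0.15 within replicate 2. By replicate number edgeR called 4 of the 13, all higher in replicate 1, where 20.5% of all genes were called. Of 8 neuroectoderm genes, ZIC1, MAP2, NES, DCX and OTX2 were lower in homozygous than in hemizygous libraries without overlap and 0 were higher. Against wild-type the list was split, with NES, MAP2 and OTX2 lower without overlap and FABP7 (log2 fold change 1.20, SE 0.29), ZIC1 (0.71, SE 0.19) and DCX (0.40, SE 0.22) higher. The summed level of the 8 was 671 to 715, 784 to 849 and 759 to 768 CPM in the same order of genotypes. Both sums were lowest in the homozygous libraries. FN1 alone held 467 to 676 CPM of the stromal sum. NES alone held 371 to 515 CPM of the neuroectoderm sum. The 3 mesendoderm genes summed to 363 to 379 CPM in homozygous, 336 to 396 in hemizygous and 260 to 277 in wild-type libraries, so this sum was lowest in wild-type. KDR alone held 257 to 393 CPM of it, while MIXL1 was at 1.23 to 3.07 and MESP1 at 0.289 to 0.816 CPM. The 2 trophoblast and amnion genes summed to 7.53 to 9.23 CPM in homozygous, 9.91 to 11.7 in hemizygous and 8.29 to 10.8 in wild-type libraries. Of 10 pluripotency markers, 4 were higher and 1 lower without overlap in homozygous than in wild-type libraries. Against hemizygous libraries 0 were higher and 2 lower. The part of cell types in the members' values was not tested.

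Replicate number told many genes apart, and with all 6 libraries none of these targets. In a fit of replicate 1 against replicate 2 with genotype as a term, edgeR called 20.5% of all genes (3322) and 0 of 10 members. With an unadjusted p under 0.05 there were 38.6% of all genes and 1 member, CDC25A, with a log2 difference of 0.22 (SE 0.07) and an adjusted p of 0.0708. DESeq2 and limma-voom called 0 members too, beside 19.6% and 21.1% of all genes. Leaving out 1 library moved the count of all called genes, to 1077 and 1140 without either wild-type library, 1 and 3 without either hemizygous and 6254 and 6266 without either homozygous library. Members higher in replicate 1 without overlap were ARID3B and CDC25A, beside 20.9% of all genes.

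The count for replicate number depended on the homozygous libraries. Without homozygous replicate 1, HMGA1 (log2 difference -0.26, adjusted p = 0.0450), NR6A1 (-0.46, adjusted p = 0.0174) and CDC25A (0.27, adjusted p = 0.0214) were called by edgeR, 3 of 10 members. The same 3 were called without homozygous replicate 2. These fits called 38.7% and 38.6% of all genes. Replicate 1 was below replicate 2 for HMGA1 by 0.31 in wild-type and 0.22 in hemizygous libraries on the log2 scale, and above it by 0.25 in homozygous libraries. For NR6A1 the log2 differences were -0.77, -0.16 and 0.29. The spread within genotypes was small for most members: the SD of log2 CPM was 0.06 (HMGA2) to 0.34 (NR6A1), and 9 of 10 members lay below the median over all genes, 0.21. That median was taken over genes of every level and was not matched to the members. Each member had at least 553 counts in every library, while rows of the table went down to 132 counts in total.

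**Figure D4:**
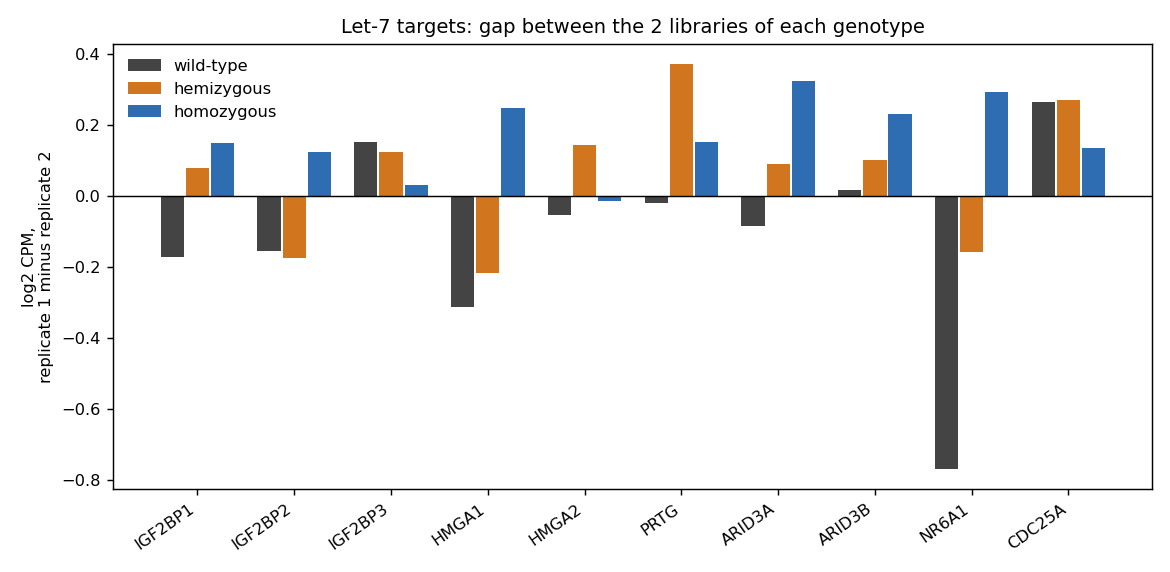
Log2 CPM of replicate 1 minus replicate 2 (vertical axis) for each let-7 target in wild-type (grey), hemizygous (orange) and homozygous (blue) libraries. CDC25A, IGF2BP3 and ARID3B are above 0 in all 3 genotypes, while HMGA1, NR6A1 and IGF2BP2 are below 0 in wild-type and hemizygous and above 0 in homozygous libraries.

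Further described let-7 targets were counted from a list of 28 that holds none of the 10 members. Of these, 27 had a row, among them MYC, IGF1R and TRIM71. edgeR called 0 in each comparison of genotypes. Their median log2 fold change was 0.03 in hemizygous (15 above 0) and -0.10 in homozygous (9 above 0) against wild-type, and -0.13 between the mutants (6 above 0). Of all genes 49.1%, 49.3% and 49.9% lay above 0. Within replicate 1 the medians of the 27 were 0.15, 0.02 and -0.12, and within replicate 2 -0.05, -0.11 and -0.09. Both medians against wild-type thus changed sign with the replicate number. The smallest p in homozygous against wild-type belonged to LRIG3, a leucine-rich repeat membrane protein (log2 fold change -0.87, SE 0.40), and YOD1, a deubiquitinase (-0.32, SE 0.15), both with an adjusted p of 1.00. For hemizygous against wild-type it belonged to DICER1 itself (-0.46, SE 0.19) and CDK6, a G1 kinase (0.34, SE 0.15). By replicate number, 12 of the 27 were called, 10 higher and 2 lower in replicate 1, where 20.5% of all genes were called. They include CCND2, a G1 cyclin (-0.74, SE 0.11, adjusted p = 0.0122).

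The genes that govern let-7 maturation were likewise not called between genotypes, 0 of 15 measured. LIN28A, which blocks Dicer from let-7 precursors, was at 1627 and 2121 CPM in wild-type libraries, 2114 and 2250.3 CPM in hemizygous, and 2473 and 2006 CPM in homozygous libraries. LIN28B, its paralog, was at 253 and 182 CPM in wild-type libraries, 274 and 182 CPM in hemizygous, and 209 and 165 CPM in homozygous libraries. Both overlapped between genotypes. DICER1 was at 169 and 126 CPM in wild-type libraries, 118 and 96.4 CPM in hemizygous, and 129 and 118 CPM in homozygous libraries. In hemizygous against wild-type 2 of the 15 were higher without overlap and 2, DICER1 among them, lower, beside 8.13% and 9.21% of all genes. In homozygous against wild-type 3 were higher and 1 lower, beside 14.2% and 13.6%. Between the mutants 1 was higher and 1 lower, beside 11% and 10.4%. LIN28B was higher in replicate 1 by 0.47 on the log2 scale (SE 0.08, adjusted p = 0.0149 by edgeR's test), and in the comparisons of genotypes its log2 fold changes ran from -0.28 to 0.07.

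Relatives of the members and described clients of the IGF2BP proteins were counted too. Of 6 relatives measured, edgeR called 0 between genotypes. IGDCC3, which is related to PRTG and is also a described let-7 target, was at 118 and 174 CPM in wild-type libraries, 138 and 148 CPM in hemizygous, and 127 and 140 CPM in homozygous libraries. It overlapped between genotypes, unlike PRTG, with a log2 fold change of -0.10 (SE 0.20) between the mutants. Of 6 IGF2BP clients measured, 0 were called between genotypes. In homozygous against wild-type libraries 5 were below 0 and 1 above, where 49.3% of all genes were above. Of these clients 2, ACTB and IGF2, were lower without overlap and 0 higher, beside 13.6% and 14.2% of all genes. The same 2 were lower in homozygous than in hemizygous libraries and 0 higher, beside 10.4% and 11%. Between the mutants the log2 fold change was -0.72 (SE 0.55) for CD44, which anchors cells to hyaluronan, and -0.33 (SE 0.28) for IGF2, the growth factor that gave the family its name. By replicate number 3 of the 6 clients were called, all higher in replicate 1, where 20.5% of all genes were called. Among them CD44 was higher by 0.99 on the log2 scale (SE 0.23, adjusted p = 0.0290 by edgeR's test). IGF2 was low, at 3.05 to 4.96 CPM.

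Among the genes whose levels ran most like HMGA2 over the 6 libraries were CDC14B, a phosphatase, and RABL2B, a small GTPase. Their Pearson r of log2 CPM with HMGA2 was 0.994 and 0.978, and Spearman's rho was 0.943 in each, among 10030 genes with a mean of at least 10 CPM. Without the 2 homozygous libraries, which lie farthest from the median, r was 0.976 and 0.868. Among the members PRTG came nearest to HMGA2, at rank 62 with r of 0.883, and IGF2BP3 followed at rank 296 with 0.788. Without the same 2 libraries r was 0.657 for PRTG and 0.304 for IGF2BP3, and ARID3B, at 0.111 over all 6, was the nearest member with 0.845, so the order of the members rests on the homozygous libraries. Over all 6 libraries HMGA1 came last, at rank 7712 with -0.454. All of these values come from the same 6 libraries, and the ranks are a description.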

How the data were processed

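The authors deposited whole-number read counts per gene for 6 Ago2 iCLIP libraries, with no normalization. The build was hg38 per the submitters' processing notes. Not given in the sources used here are the aligner, the counter, the annotation and any use of strand or molecular identifiers. IgG pull-downs were not used here. Columns were tied to samples by the labels, and 0 columns were left unused.

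Counts were scaled with TMM factors, filtered with filterByExpr (all 16199 rows kept) and fitted in edgeR 4.0.16 (R 4.3.3), whose quasi-likelihood test gave the p-values. The model held a mean for each genotype over all 6 libraries. Replicate number was tested in a model with genotype. P-values were adjusted by Benjamini-Hochberg over all genes and called under 0.05. Standard errors are the fold change over the root of F, and log2 CPM per library uses a prior count of 2. Library totals were 38.2 M to 52.9 M, and each member had at least 553 counts in every library. The number of libraries and, for genes of few counts, counting error limit the precision.

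Members and lists were chosen with earlier results of these data known. All members are named, and from other lists the 2 genes of smallest p, with LIN28A, LIN28B and DICER1. The other relatives and clients named, the example list members MYC, IGF1R and TRIM71, PDGFRA, MALSU1 and the other marker genes named beyond those were added afterwards. Some genes that the rule names are not reported here. Alternatives were RLE factors, library totals, no filter, a minimum of 20 counts in 2 libraries, DESeq2 1.42.0, voom of limma 3.58.1, a fit of only the compared groups, a block for replicate number, and leaving out each library. The fit was tested on simulated counts. MicroRNA sequences are from RefSeq, GRCh38.p14, and protein and target-site sequences were not used here.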

Additional observations from a re-analysis of the deposited data

Results flagged for a closer look

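PRTG and IGF2BP3 were picked out because every hemizygous library lay above, and every homozygous library below, all wild-type libraries. PRTG had log2 fold changes against wild-type of 0.36 in hemizygous and -0.35 in homozygous libraries. IGF2BP3 had 0.14 and -0.15. The difference between the mutants was itself tested by edgeR and did not pass, with an adjusted p of 0.999 for both genes. Of all 16199 genes, 45 (0.278%) showed this order. No group had enough libraries for a check of single outlying libraries.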

How the results depend on the processing

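In the comparisons of genotypes, 0 of 10 members were called under every alternative that was run, and PRTG, IGF2BP3 and the homozygous differences of HMGA2 kept their sign in each (for PRTG and IGF2BP3 in all comparisons). Only replicate number gave other counts, 0 to 3 members called over the 6 libraries left out. A genotype left with 1 library was there assumed to vary as the others do. The replicate block also called 0 members, with log2 fold changes of PRTG of -0.71 between the mutants (adjusted p = 0.573) and -0.36 in homozygous against wild-type libraries (adjusted p = 0.382). It raised the number of members with an unadjusted p under 0.05 to 2, 2 and 3 in the 3 comparisons of genotypes, in the order used below, and the share of all genes to 3.8%, 12% and 8.2%. Over all genes, the gaps between replicates 1 and 2 correlated at 0.74 between wild-type and hemizygous, 0.36 between wild-type and homozygous and 0.48 between hemizygous and homozygous libraries. Over the 10 members they correlated at 0.70, -0.52 and -0.37. The labels do not say what the number marks.

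None of the values whose sign turned was called with all 6 libraries, and the cause was not tested. With library totals alone, log2 fold changes were -0.0013 for HMGA2 (hemizygous against wild-type), -0.0027 for NR6A1 (homozygous against wild-type), and -0.049 for IGF2BP1 and -0.043 for HMGA2 (replicate number). That scaling moved the median of all genes for replicate number to -0.07. For ARID3B in homozygous against wild-type the value was -0.0028 with RLE, -0.0027 with DESeq2, -0.0045 with limma-voom and -0.0039 with the replicate block. Between the mutants ARID3B was at -0.0010 with RLE and -0.00096 with DESeq2, and ARID3A at -0.0054 with RLE, -0.0053 with DESeq2, -0.0065 with limma-voom and -0.0024 with the replicate block.

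Leaving out each library in turn moved the following values across 0, among them some that were not near 0, such as NR6A1 for replicate number (-0.21 with all libraries) and HMGA1 in homozygous against wild-type (0.14). NR6A1 and HMGA1 were called for replicate number without either homozygous library. In hemizygous against wild-type the ranges were -0.019 to 0.16 for IGF2BP1, -0.17 to 0.016 for IGF2BP2, -0.11 to 0.21 for HMGA1, -0.053 to 0.084 for HMGA2, -0.049 to 0.044 for ARID3B and -0.21 to 0.57 for NR6A1. In homozygous against wild-type they were -0.099 to 0.079 for IGF2BP1, -0.094 to 0.066 for IGF2BP2, -0.00028 to 0.32 for HMGA1, -0.25 to 0.077 for ARID3A, -0.12 to 0.11 for ARID3B, -0.32 to 0.45 for NR6A1 and -0.019 to 0.24 for CDC25A. Between the mutants they were -0.032 to 0.14 for IGF2BP2, -0.026 to 0.22 for HMGA1, -0.17 to 0.15 for ARID3A, -0.11 to 0.12 for ARID3B, -0.27 to 0.020 for NR6A1 and -0.26 to 0.017 for CDC25A. For replicate number they were -0.046 to 0.10 for IGF2BP1, -0.26 to 0.0044 for HMGA1, -0.049 to 0.054 for HMGA2 and -0.46 to 0.055 for NR6A1.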

Other observations

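Host transcripts of let-7 hairpins were looked at outside the rule for named genes. MIRLET7BHG, the host of let-7a-3 and let-7b, was at 0.713 and 1.53 CPM in wild-type, 1.12 and 2.09 CPM in hemizygous, and 2.53 and 2.44 CPM in homozygous libraries. The homozygous libraries were the highest, with a log2 fold change of 1.16 (SE 0.46) against wild-type and an adjusted p of 1.00 by edgeR's test. MIRLET7IHG was at 2.01 and 2.38 CPM in wild-type, 2.22 and 3.34 CPM in hemizygous, and 3.35 and 3.10 CPM in homozygous libraries (log2 fold change from wild-type 0.56, SE 0.29). MIRLET7A1HG, at 7.46 to 12.5 CPM, and MIR100HG, at 2.53 to 7.58 CPM, overlapped between genotypes in all 3 comparisons. MIR4458HG, the host of miR-4458, was at 3.70 and 3.48 CPM in wild-type, 0.156 and 0.380 CPM in hemizygous, and 0.463 and 1.01 CPM in homozygous libraries, from 6 to 192 counts per library, so that counting error weighs on the mutant values. Both mutants lay below wild-type without overlap, with log2 fold changes of -3.68 (SE 0.53) in hemizygous libraries and -2.29 (SE 0.48) in homozygous libraries, and edgeR called neither (adjusted p = 1.00 in both).

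The remaining microRNAs with the let-7 seed are miR-4458 and miR-4500 of 19 and 17 bases, printed in the same way.
miR-4458: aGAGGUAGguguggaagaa
miR-4500: uGAGGUAGuaguuucuu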
